A study of Rattus norvegicus with 8 samples.

Results

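Transcripts of 10 cytotoxic lymphocyte effector genes were examined in rat sciatic nerve allografts and unoperated nerves. The genes were chosen by name: the granzymes Gzmb, Gzma, Gzmk and Gzmm, the pore protein perforin (Prf1), the granule membrane protein Nkg7, the cytokine interferon gamma (Ifng), and the receptors Klrk1 (NKG2D), Klrd1 (CD94) and Cd160. Each of the 10 symbols was found once among 32545 genes of the deposited table, and 10 of 10 passed the filter on low values that left 16478 genes for testing.

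Sciatic nerves of outbred female Sprague Dawley rats aged 3 to 6 months were sequenced in 3 groups. PEG-fused PNAs (PEG, n = 3) were peripheral nerve allografts whose cut axon ends were joined to the host nerve with the membrane fusogen polyethylene glycol. Negative control PNAs (NC, n = 3) were allografts sutured in place without PEG, and Unop nerves (n = 2) had no surgery. The hypotonic saline, the methylene blue and the sutures were common to PEG and NC hosts, donors were not tissue matched, and no host received an immunosuppressant. Grafts were removed at 14 days after surgery (PO), and each library came from 1 animal. A graft at that time holds donor tissue and host cells, and neither could be read separately from these values. The authors found several muscle-related transcripts highest in NC and tied them to adhering muscle that could not be fully trimmed from rejected grafts. What this did to the member values was not tested.

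Cytotoxic T cells and natural killer (NK) cells kill a target by releasing granules onto it. Perforin opens its membrane, and granzymes, a family of serine proteases, then enter and trigger its death. NKG2D recognises stress-induced ligands, CD94 pairs with NKG2 proteins to read nonclassical MHC class I, and interferon gamma raises antigen presentation in nearby cells. Such lymphocytes are a known arm of allograft rejection.

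Libraries held between 32472925 and 39959620 reads on genes, and the members together took 387 to 16635 of these reads. Values are normalized read counts, that is reads divided by a size factor of the library, and they were compared within a gene and not between genes, since no transcript length was applied. A gene was called where the adjusted p of limma over all tested genes was below 0.05 and the log2 fold change was beyond 1 in either direction. Schwann cell markers stood for the labelled tissue and were detected in all 8 libraries. Their summed normalized count was 74990 to 83381 in PEG, 28535 to 86660 in NC, with NC 1 the highest, and 2778220 to 3265320 in Unop. NC 1 stood apart from NC 2 and NC 3 on these markers, and without it the members gave the same number of calls in each comparison as with it. Groups of 2 and 3 animals are small. Each limma p-value weighs a difference against the spread between animals within all 3 groups together, moderated by the spread of the other tested genes.

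All 10 effector genes had fewer transcripts in PEG-fused PNAs than in the negative controls, by 6.75-fold (Klrd1) to 32.9-fold (Ifng) on the fitted scale of log2(normalized count + 1). Of all tested genes, 7.14% were called lower and 4.41% higher in this comparison. For each member every PEG library lay below every NC library, a pattern that 23.3% of tested genes had. The median log2 fold change was -3.19 over the members and 0.0017 over all tested genes. In bulk tissue, fewer cells of a type and less RNA per cell cannot be told apart.

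Members that fell together are shown first by the DNA in front of them, with 4 windows that carry the perforin and granzyme genes described next and the cytokine gene with the largest fall. The windows are the 250 bases before the RefSeq start of each gene in build GRCr8, 5′ to 3′ in the direction of the gene. They lie at chr15:34462470-34462719 (- strand) for Gzmb, chr20:29788790-29789039 (+ strand) for Prf1, chr7:10667257-10667506 (- strand) for Gzmm and chr7:55788930-55789179 (+ strand) for Ifng. Capitals mark matches on either strand to TGTGGT, a core bound by Runx factors, or AGGTGT, a short site of T-box factors such as T-bet and Eomes.
Gzmb: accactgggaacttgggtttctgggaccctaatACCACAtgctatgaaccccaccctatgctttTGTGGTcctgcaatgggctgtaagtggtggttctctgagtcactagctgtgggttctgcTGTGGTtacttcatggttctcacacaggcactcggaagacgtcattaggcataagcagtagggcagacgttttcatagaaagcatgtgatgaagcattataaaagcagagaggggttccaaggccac
Prf1: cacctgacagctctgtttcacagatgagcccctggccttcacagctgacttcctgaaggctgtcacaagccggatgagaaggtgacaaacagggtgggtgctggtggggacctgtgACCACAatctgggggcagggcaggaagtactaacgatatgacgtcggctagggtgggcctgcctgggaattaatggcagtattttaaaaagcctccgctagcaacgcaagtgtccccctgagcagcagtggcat
Gzmm: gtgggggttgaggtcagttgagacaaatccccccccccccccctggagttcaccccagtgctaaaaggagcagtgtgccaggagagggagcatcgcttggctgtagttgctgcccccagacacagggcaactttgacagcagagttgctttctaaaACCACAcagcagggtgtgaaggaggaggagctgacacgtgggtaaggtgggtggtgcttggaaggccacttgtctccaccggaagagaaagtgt
Ifng: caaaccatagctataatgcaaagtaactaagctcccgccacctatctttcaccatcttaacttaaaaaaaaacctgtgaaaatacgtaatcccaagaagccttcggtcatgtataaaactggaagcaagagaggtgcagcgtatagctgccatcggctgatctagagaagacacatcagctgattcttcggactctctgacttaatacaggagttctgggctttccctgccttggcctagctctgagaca

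Gzmb carried 3 TGTGGT matches, at -217, -186 and -127 from its start. Prf1 carried 1 at -134, Gzmm 1 at -94, and the Ifng window held neither motif. The Ifng start fell on an ATG with an open reading frame through the 50 bases past it, so it may be the coding start. The Ifng window may then lie partly inside the transcript, and its lack of a match cannot be compared with the other windows. Windows of 300 bases, which run on to 50 bases past the start, were matched for 9 of 10 members, and Klrd1 was not analysed here in this respect. TGTGGT was present in 7 of these 9, against 17.3% of 33469 rat promoters of that length. AGGTGT was present in 2 of 9 (Gzma and Cd160), against 13.6%. STAT sites (TTCNNNGAA) were present in 2 of 9 against 8.87%, AP-1 sites (TGANTCA) in 2 of 9 against 7.33%, and the short NFAT core GGAAA in 6 of 9 against 62.7%. Gzma and Gzmk are neighbours on chromosome 2, and Klrd1 and Klrk1 on chromosome 4. These matches describe letters and not bound sites.

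Perforin and the granule protein Nkg7 followed one pattern. Prf1 (ENSRNOG00000000562) gave normalized counts of 538.5, 132.8 and 234.5 in PEG 1 to PEG 3, of 1839, 2924 and 3429 in NC 1 to NC 3, and of 46.1 and 22.5 in Unop 1 and Unop 2. The lowest NC graft was above the highest PEG graft, and both kinds of graft were above unoperated nerve. Its log2 fold change in PEG against NC was -3.36 (SE 0.50, limma adjusted p = 0.00246), or 10.3-fold lower. Nkg7 (ENSRNOG00000017749), a protein needed for the release of cytotoxic granules, stood at 520.0, 146.8 and 199.8 in PEG, 2034, 3875 and 3009 in NC, and 32.2 and 22.5 in Unop. The groups again did not overlap. Its log2 fold change in PEG against NC was -3.53 (SE 0.45, limma adjusted p = 0.0014).

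**Figure D1:**
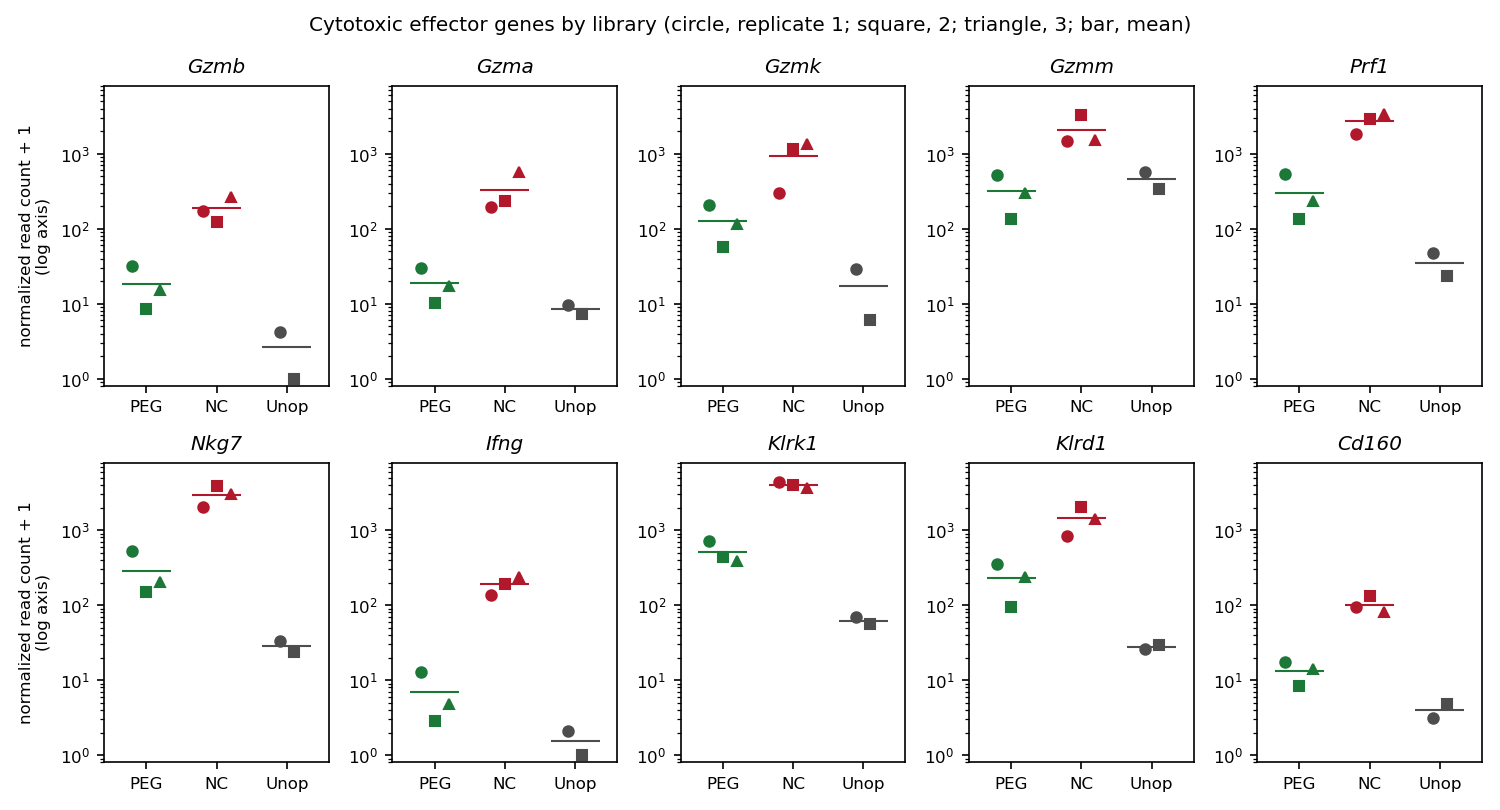
Normalized read count plus 1 on a log axis for each of the 10 genes, with 1 symbol per library (circle, replicate 1; square, 2; triangle, 3) and a bar at the group mean. Every NC library lies above every PEG library for all 10 genes, and Gzmm is the gene whose PEG and Unop libraries overlap.

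The 4 granzymes differed in where PEG grafts lay against unoperated nerve. Gzmb (ENSRNOG00000049976), the granzyme that cleaves caspases, had 33, 8 and 15 reads in PEG, 190, 114 and 275 in NC, and 3 and 0 in Unop. Normalized, this was 17.4 ± 11.9 (SD, n = 3) in PEG, 185.9 ± 72.7 (SD, n = 3) in NC and 1.61 ± 2.28 (SD, n = 2) in Unop. The PEG grafts lay between the other groups without touching either, with a log2 fold change of -3.48 against NC (SE 0.65, limma adjusted p = 0.00619).

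Gzma (ENSRNOG00000010603), a tryptase that cleaves substrates other than caspases, stood at 28.7, 9.35 and 15.9 normalized counts in PEG, 194.8, 230.2 and 563.4 in NC, and 8.59 and 6.25 in Unop. PEG 2 was close to the unoperated nerves, and the NC libraries were far above both. The log2 fold change was -4.09 in PEG against NC (SE 0.50, limma adjusted p = 0.00124). Against Unop it was 1.06, with a 95% interval from -0.22 to 2.34, and it did not pass the test (limma adjusted p = 0.138).

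Gzmk (ENSRNOG00000010661), a granzyme of memory T cells, was uneven between NC grafts. It had 203.9, 56.1 and 113.5 normalized counts in PEG, 301.1, 1148 and 1366 in NC, and 27.9 and 5.003 in Unop. NC 1 was nearer to PEG 1 than to the other NC grafts. The log2 fold change in PEG against NC was -2.82 (SE 0.77, limma adjusted p = 0.0273), and it lost its call when PEG 2, PEG 3, NC 2 or NC 3 was left out (limma adjusted p = 0.0989, 0.0701, 0.0729 and 0.0852).

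Gzmm (ENSRNOG00000030530), a granzyme found mainly in NK cells and other innate lymphocytes, had 530 and 272 reads in unoperated nerve. In the same libraries the NK receptor Ncr1 had 9 and 11 reads and Nkg7 had 30 and 18. Which cells of unoperated nerve gave the Gzmm reads was not tested. Normalized counts were 568.8 and 340.2 in Unop, 517.2, 132.8 and 296.4 in PEG, and 1491, 3236 and 1536 in NC. PEG grafts therefore overlapped unoperated nerve, while NC grafts lay above both. Its log2 fold change was -2.83 in PEG against NC (SE 0.50, limma adjusted p = 0.00491) and -0.69 in PEG against Unop, with a 95% interval from -1.96 to 0.59 (limma adjusted p = 0.322). In RefSeq, Gzmm on chromosome 7 overlaps neither of its neighbours, Bsg and Cdc34. The reads were aligned to another genome build, so RefSeq cannot show whether the gene models used for counting overlap. Whether reads of a neighbour entered the Gzmm counts was not tested.

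The make-up of the granzyme reads was compared as the share of each gene in the reads of the 4 granzymes of a library. Gzmm held 93.5% of them in Unop 1 (95% Wilson interval 91.1 to 95.2) and 96.8% in Unop 2 (94.0 to 98.3). In PEG grafts it held 66.3%, 64.5% and 67.4%, and in NC grafts 69.1%, 68.3% and 41.2%. The share was therefore higher in unoperated nerve than in any graft, and NC 3 was apart from the other 5 grafts. Gzmk held 26.1%, 27.3% and 25.8% in PEG, 14.0%, 24.2% and 36.6% in NC, and 4.59% and 1.42% in Unop. PEG grafts lay within the range of NC grafts for Gzmm and Gzmk. Gzma held 3.68%, 4.55% and 3.62% in PEG, 9.03%, 4.86% and 15.1% in NC, and 1.41% and 1.78% in Unop. Every PEG graft was thus below every NC graft for Gzma, but the intervals of PEG 2 (2.49 to 8.16) and NC 2 (4.26 to 5.54) overlapped. Gzmb held 3.92%, 3.64% and 3.20% in PEG, 7.87%, 2.59% and 7.11% in NC, and 0.53% and 0% in Unop. Its PEG shares lay within the NC range. Intervals cover counting error only, and the reads were not counted by molecule.

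Other granzyme genes were read in few numbers. Gzmc, Gzmn and Gzmbl2 had 0 reads in all 8 libraries, and Gzmf did not pass the filter. Gzmbl3, a granzyme B-like gene, was the granzyme that went the other way, with 26.9, 18.7 and 12.2 normalized counts in PEG, 3.57, 4.30 and 7.72 in NC, and 0 in both Unop libraries. Every PEG graft was above every NC graft, with a log2 fold change of 1.70 (limma adjusted p = 0.0242). Reads of near-identical granzyme genes can be split or lost in counting, so that the values of Gzmb and Gzmbl3 are uncertain.

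Interferon gamma had the largest fall of the 10 genes. Ifng (ENSRNOG00000007468) was covered by 13, 2 and 4 reads in PEG, 151, 179 and 249 in NC, and 1 and 0 in Unop. Normalized, it was 5.89 ± 5.42 (SD, n = 3) in PEG against 189 ± 52.7 (SD, n = 3) in NC, and no PEG library came near an NC library. The log2 fold change was -5.04, with a 95% interval from -6.39 to -3.70 (SE 0.59, limma adjusted p = 0.00107).

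The receptors were lower in PEG by similar amounts, with overlapping intervals. Klrk1 (ENSRNOG00000061739), the activating receptor NKG2D, was the most even member within each kind of graft, at 722.0, 436.6 and 381.8 normalized counts in PEG, 4363, 3991 and 3704 in NC, and 67.6 and 55.0 in Unop. Its coefficient of variation was 35.6% in PEG, against 37.3% to 91.9% for the other 9 genes, and 8.21% in NC, against 25.7% to 61.7% for the other 9 genes. The log2 fold change in PEG against NC was -3.02, with a 95% interval from -3.53 to -2.51 (SE 0.22, limma adjusted p = 0.000343).

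Klrd1 (ENSRNOG00000060246), the CD94 chain, stood at 355.0, 94.4 and 233.6 in PEG, 838.2, 2046 and 1425 in NC, and 24.7 and 28.8 in Unop. Groups were separate, and the log2 fold change of -2.75 in PEG against NC (95% interval -3.86 to -1.65, limma adjusted p = 0.00483) was the smallest of the members. Cd160 (ENSRNOG00000000097), an Ig-type receptor that binds herpesvirus entry mediator, had 18, 8 and 14 reads in PEG, 104, 121 and 83 in NC, and 2 and 3 in Unop. At these low depths the groups still did not overlap, and the log2 fold change was -2.96 (95% interval -3.83 to -2.09, limma adjusted p = 0.00144). Klrk1 and Klrd1 belong to families of similar genes, whose shared reads the counting may split.

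**Figure D2:**
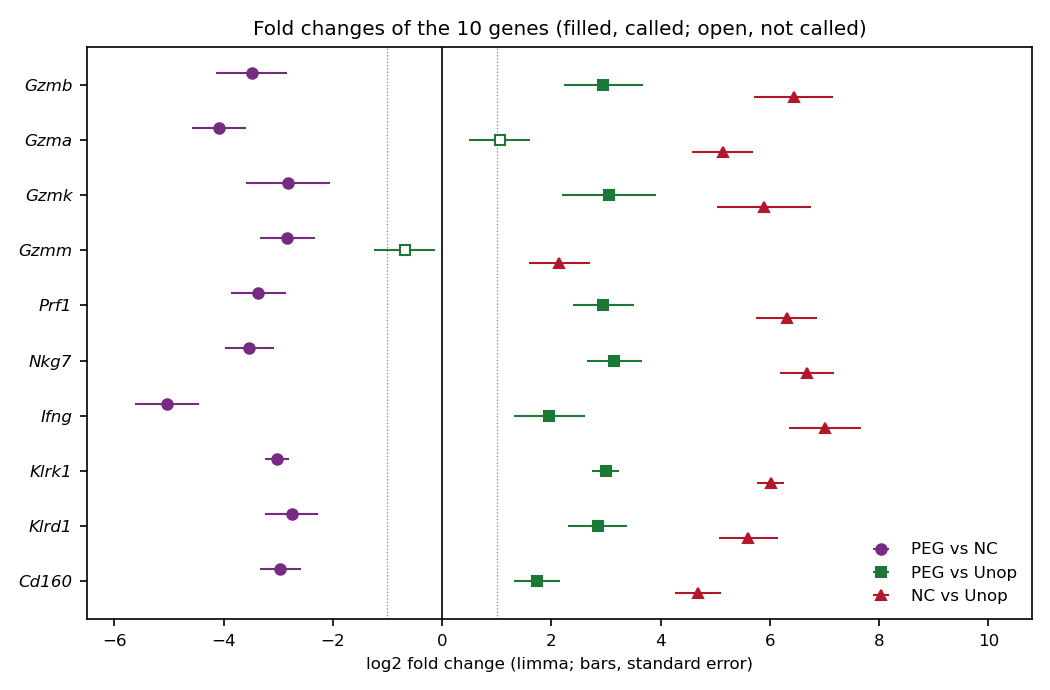
Log2 fold change (limma, on log2 of the normalized count plus 1) with its standard error for the 10 genes in PEG against NC, PEG against Unop and NC against Unop. All 10 points of PEG against NC lie left of -1, and the open points of Gzma and Gzmm mark the pair not called in PEG against Unop.

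Against unoperated nerve, all 10 effector genes were called higher in NC grafts and 8 of them in PEG grafts. In NC grafts 10 of 10 members were called higher, beside 19.6% of all tested genes, with a median log2 fold change of 5.95 over the members and 0.02 over all tested genes. Log2 fold changes ran from 2.15 (Gzmm, SE 0.56, limma adjusted p = 0.00921) to 7.01 (Ifng, SE 0.66, limma adjusted p = 3.15e-05). Among the cytolytic genes the log2 fold changes in NC against Unop were 6.31 for Prf1, 6.68 for Nkg7, 6.44 for Gzmb, 5.89 for Gzmk and 5.14 for Gzma. The receptors had log2 fold changes of 6.02 (Klrk1), 5.61 (Klrd1) and 4.69 (Cd160), and the largest limma adjusted p of these 8 genes was 0.000416, for Gzmk. The call of Gzmm was lost without Unop 2 (limma adjusted p = 0.0754).

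In PEG grafts 8 of 10 members were called higher than in Unop, beside 16.7% of all tested genes, with medians of 2.90 and 0.01. Nkg7 had the largest log2 fold change, 3.16 (SE 0.50, limma adjusted p = 0.000838), and Klrk1, at 3.00 (SE 0.25, limma adjusted p = 2.51e-05), the smallest error. On the log2 scale Prf1 rose by 2.95 (SE 0.56, limma adjusted p = 0.00219) and Klrd1 by 2.85 (SE 0.54, limma adjusted p = 0.00218). The PEG and NC comparisons share the 2 Unop libraries. Without Unop 2, 5 of 10 members were called, and Gzmb, Gzmk and Ifng lost their calls.

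Few reads in Unop limited several of these comparisons. Ifng had 1 read in the 2 Unop libraries together against 19 in PEG, a ratio of size-adjusted reads of 10.2 with an exact 95% counting interval from 1.63 to 425.2. For Gzmb the counts were 3 against 56, and the ratio was 10.1 (3.27 to 50.2). Their fitted log2 fold changes in PEG against Unop, 1.97 for Ifng (limma adjusted p = 0.0308) and 2.95 for Gzmb (limma adjusted p = 0.00819), depend on the pseudocount and were 0.64 and 1.32 with a pseudocount of 8. Ifng lost this call in edgeR and DESeq2 on the recovered reads (adjusted p = 0.0599 and 0.0509) and in 5 other settings. Over its 17 alternatives the adjusted p ran from 0.0129 to 0.181. The log2 fold change of Cd160 was 1.73 (limma adjusted p = 0.00771), and its call was lost without Unop 1 (limma adjusted p = 0.0546) and with a pseudocount of 8, where the log2 fold change was 0.88.

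The order of the animals was much the same over members in PEG and mixed in NC. PEG 1 was the highest PEG library for 10 of 10 genes, and PEG 2 was the lowest for 9 of 10. The summed normalized count of the members was 2945, 1026 and 1507 in PEG 1 to PEG 3, while these libraries held 34672570, 34671712 and 33942197 reads on genes. NC 3 was the highest NC library for 5 of 10 genes, NC 2 for 4 and NC 1 for 1, NC 1 was the lowest for 7, NC 3 for 2 and NC 2 for 1, with sums of 11459, 17895 and 15618 in NC 1 to NC 3. Unop 2 was the lower for 8 of 10, with sums of 782 and 484. The order of animals is a description of these libraries.

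Markers of T cells, NK cells, and B and plasma cells were mostly lower in PEG than in NC, as the effector genes were. Of 11 tested T cell markers 10 were called lower in PEG than in NC, with a median log2 fold change of -2.90. The summed normalized count of the 11 was 8561 to 13662 in PEG, 34160 to 57753 in NC and 1885 to 2293 in Unop. The marker not called was Cd4, with a log2 fold change of -0.73 (limma adjusted p = 0.00766). Cd4 stood at 5667 to 6332 in PEG, 7776 to 11602 in NC and 1578 to 1751 in Unop, a large part of the PEG and Unop sums. Of 12 tested NK cell markers 9 were called lower, with a median of -2.33 and sums of 4302 to 7522 in PEG, 10033 to 15047 in NC and 588 to 879 in Unop. Ly49i2 was at 0 in all libraries. The defining NK receptor Ncr1 was at 80.9 ± 66.8 (SD, n = 3) in PEG, 351 ± 138 (SD, n = 3) in NC and 11.7 ± 2.90 (SD, n = 2) in Unop. The part of cell numbers in the fall of the effector genes was not tested. Markers of mast cells, which also carry granule proteases, were called in neither direction (0 of 8), at 1200 to 1694 in PEG, 1169 to 1661 in NC and 5353 to 9092 in Unop. Of the other cell types, 5 of 6 tested markers of B and plasma cells and 3 of 6 of neutrophils were called lower. So were 2 of 7 of plasmacytoid dendritic cells and 2 of 7 of macrophages, while 1 of 7 of Schwann cells was called higher. The median log2 fold changes of these lists were -2.59, -0.73, -1.31, -0.52 and 0.83, in that order. The summed count of the B and plasma cell markers was 5147 to 6041 in PEG and 5545 to 7268 in NC.

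Each member was then set against T cell transcripts of the same library. The log2 ratio of the member to Cd3e, a chain of the T cell receptor complex, differed between PEG and NC by a median of 0.34 over the 10 genes, higher for 8 and lower for 2. Against Cd8a, the co-receptor of cytotoxic T cells, the median was -0.84 and 10 of 10 were lower. The reference genes themselves fell by unequal amounts, with log2 fold changes in PEG against NC of -3.53 for Cd3e (limma adjusted p = 0.00323) and -2.35 for Cd8a (limma adjusted p = 0.0049). The direction of the median thus depended on the reference, and without PEG 2 the median against Cd3e was -0.018. Against Ncr1, a reference chosen after the data were seen, it was -0.85.

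Ifng was the member that was lower relative to every reference without overlap of the groups. Its log2 ratio to Cd3e was -6.36 ± 0.64 (SD, n = 3) in PEG and -4.85 ± 0.46 (SD, n = 3) in NC, a difference of -1.51. Relative to Cd8a the difference was -2.69, and relative to Ncr1 it was -2.70. In PEG these ratios rest on 13, 2 and 4 Ifng reads. Its normalized counts of 12.0, 1.87 and 3.75 there are near the pseudocount of 1. Gzmm and Klrd1 were higher in PEG relative to Cd3e, by 0.70 and 0.78, without overlap. Gzma, Prf1 and Nkg7 were lower relative to Cd8a, by -1.73, -1.01 and -1.17, without overlap. In a two-sided exact permutation test 3 against 3 libraries cannot go below p = 0.1, which each of these ratios reached, and over the 10 genes the Benjamini-Hochberg adjusted exact p was 0.333 for Cd3e, 0.25 for Cd8a and 0.40 for Ncr1.

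**Figure D3:**
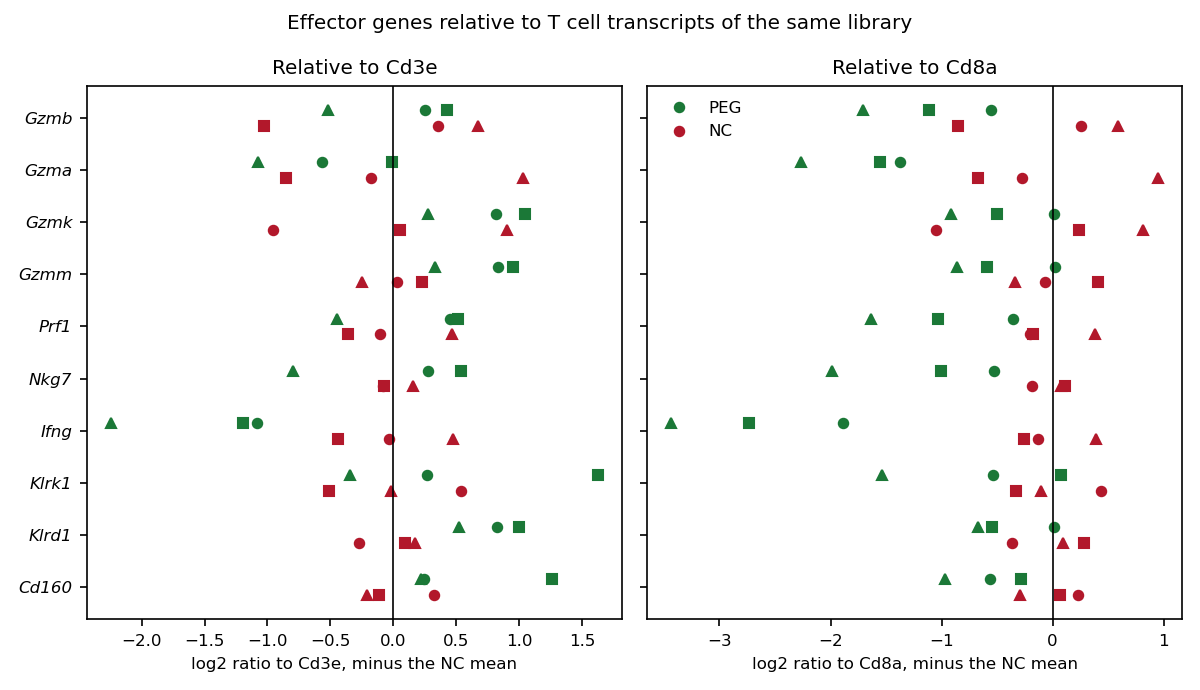
Log2 ratio of each gene to Cd3e (left) and to Cd8a (right) in the same library, with the mean of the NC libraries set to 0 for each gene (circle, replicate 1; square, 2; triangle, 3). The PEG libraries of Ifng lie left of all NC libraries in both panels, and the PEG mean lies right of 0 for 8 of 10 genes against Cd3e and left of 0 for 10 of 10 against Cd8a.

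Genes that act with the effectors were taken by list. Of 6 tested genes for loading and processing of granules, 3 were called lower in PEG than in NC, namely serglycin (Srgn, -1.93), the cathepsin Ctsw (-3.42) and the granzyme B inhibitor Serpinb9 (-1.22). Ctsl, a lysosomal protease, was higher (1.26), and Ctsc, which activates granzymes, had a log2 fold change of -0.80 (limma adjusted p = 0.00821) and missed the fold threshold. For granule exocytosis 2 of 10 were called lower, Unc13d (-1.69) and Stx11 (-1.05), which prime and fuse cytotoxic granules, 0 were called higher, and the median of the list was -0.31. Complexin 2 (Cplx2), a regulator of vesicle fusion, had the smallest adjusted p of that list and the opposite sign, at 295.7, 346.8 and 296.4 normalized counts in PEG and 163.5, 142.0 and 164.0 in NC. Its log2 fold change of 0.99 (limma adjusted p = 0.0024) was just under the fold threshold. The vesicle protein Vamp8 had a log2 fold change of -0.62 (limma adjusted p = 0.00494), also under it.

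Of 5 tested death receptor ligands and receptors 4 were lower, among them lymphotoxin (Lta, -4.94), Fas ligand (Faslg, -3.53), TRAIL (Tnfsf10, -2.09) and Fas (-1.03). Tnf was not tested, with 1 read in NC 1 and 0 in the other 7 libraries. Of 6 tested partners of NKG2D and CD94 4 were lower, namely Klrc3 (-3.03), Klrc1 (-2.69), the kinase Zap70 (-3.26) and the NKG2D adaptor Hcst (-1.55). Tyrobp, an adaptor also used by macrophages, had a log2 fold change of -0.32 (limma adjusted p = 0.287). Of 7 ligand symbols listed 2 were found, the Cd160 partner Tnfrsf14 and the NKG2D ligand Raet1e. Tnfrsf14 fell by 4.22 on the log2 scale (limma adjusted p = 0.00155). Raet1e was at 52.9 ± 11.9 (SD, n = 3) in PEG and 45.2 ± 8.81 (SD, n = 3) in NC (limma adjusted p = 0.595). The other listed NKG2D ligands were not analysed.

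Inducers of the effector state were lower as a group, with 14 of 17 called lower in PEG than in NC, 0 higher, and a median of -2.47. They included Stat4 (-2.47), which carries the interleukin 12 signal, and the receptor chains Il15ra (-2.98) and Il12rb2 (-3.13). The transcription factors Tbx21 (T-bet, -3.12) and Eomes (-2.82) were also lower. Of the 17, 13 were called higher in PEG than in Unop, beside 16.7% of all tested genes, and 1 lower. Stat4 was not called there (limma adjusted p = 0.137), at 5484 and 5302 normalized counts in Unop and 5658 to 7903 in PEG. Il12rb2 was not called there either (limma adjusted p = 0.706). Which cells gave the Stat4 reads was not tested. Of 13 tested genes of the interferon gamma receptor pathway and its targets 9 were lower and 0 higher, with a median of -2.98. Irf1 (-2.98), Gbp5 (-2.93) and the chemokine Cxcl9 (-4.06) were targets that fell. Of the receptor chains, Ifngr1 had a log2 fold change of -0.18 (limma adjusted p = 0.508) and Ifngr2 of -0.56 (limma adjusted p = 0.00808, under the fold threshold).

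**Figure D4:**
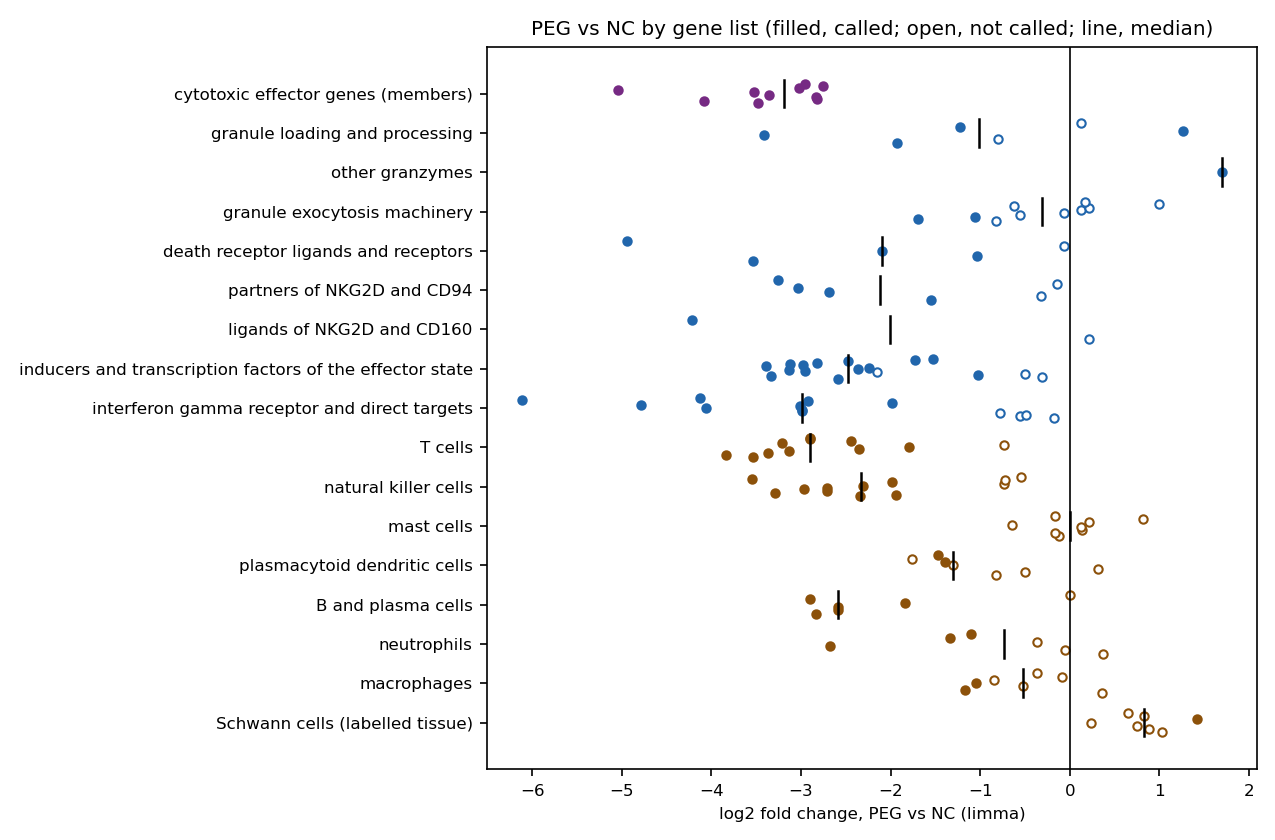
Log2 fold change in PEG against NC (limma) of the 10 effector genes and of each tested gene of the pathway and cell type lists, with 1 point per gene, filled where called, and a line at the median of the list. The members sit between -5.04 and -2.75. The T cell, NK cell, and B and plasma cell lists have medians of -2.90, -2.33 and -2.59, and the granule exocytosis list one of -0.31.

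The genes most like the members were sought as those with the smallest root mean square difference from the mean member profile, taken over z-scores of log2(normalized count + 1) in the 8 libraries. They were Ms4a7 (0.065), Pdcd1 (0.069), Ms4a14 (0.077), AABR07020463.1 (0.080), Pak1 (0.098), Irf2 (0.098), Spns3 (0.108) and Ciita (0.108). Z-scores remove the size of a change, so these genes were like the members in shape only. Log2 fold changes in PEG against NC were -3.06 for Ms4a7, the nearest, but -1.17 for Pak1 and -0.77 for Irf2, which was not called. Pdcd1, the PD-1 checkpoint receptor, stood at 57.1 ± 37.6 (SD, n = 3) in PEG, 895 ± 311 (SD, n = 3) in NC and 6.79 ± 2.53 (SD, n = 2) in Unop. Among the members themselves, Prf1 (0.106) and Ifng (0.107) were nearest to the mean profile, and Gzmm (0.558) was the farthest, which was the gene with overlapping PEG and Unop libraries.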

How the data were processed

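Poly-A RNA of 8 rat sciatic nerve samples (3 PEG, 3 NC, 2 Unop) was sequenced as paired reads of 75 bases with a stranded kit. The authors ran FastQC, aligned with Tophat2 to Rnor 6.0, counted reads per gene with HTSeq-count and deposited the signal as normalized counts, divided by DESeq2 size factors (0.800 to 1.12). Versions and the strand setting are not given in the sources used here, so reads of antisense partners may be mixed. Deposited fold changes and p-values hold the authors' comparisons and were not used. After rescaling, every value was a whole number of reads within a tolerance of 0.001 times the count. This check could not fail for genes with many reads.

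Values were tested with limma 3.58.1 (trend, 1 fit of 3 groups) on log2(normalized count + 1), which understates changes of low genes, for genes that reached 10 normalized counts in 2 or more libraries, with Benjamini-Hochberg adjustment. edgeR 4.0.16 and DESeq2 1.42.0 on recovered reads, other filters, pseudocounts, scalings, a replicate block and each library left out were alternatives, run in R 4.3.3. limma was also run on simulated counts with large planted changes in genes with many reads. Their spread was smaller than that of the members between PEG grafts. That run therefore does not cover genes with few reads or wide spread. Ratios used exact permutation tests (SciPy 1.17.1).

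The members and lists were chosen with earlier results of these data known. Named genes are all members, the 3 genes of each list with the smallest adjusted p in PEG against NC, direct partners of members, the T cell references and the 8 nearest profiles. Ctsw, Stx11, Fas, Tnf, Tbx21, Eomes, Cd4, Ncr1, Ly49i2 and the untested granzymes were named beyond this rule, after their values were seen. RefSeq (GRCr8) gave promoters and neighbours only.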

Additional observations from a re-analysis of the deposited data

How the results depend on the processing

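Over 17 alternatives for each member and comparison, no log2 fold change changed direction. Members called in the reported fit kept the call in 166 of 170 cases in PEG against NC, 125 of 136 in PEG against Unop and 169 of 170 in NC against Unop. Leaving out each library in turn gave 9 to 10 members lower in PEG than in NC, 5 to 8 higher in PEG than in Unop, with 5 without Unop 2, and 9 to 10 higher in NC than in Unop. Ifng, Cd160, Gzmb and Gzmk lost calls in PEG against Unop. With a pseudocount of 8, 6 members were called higher in PEG than in Unop, and 7 in edgeR, in DESeq2 and with only the 2 groups compared. The median difference in log2 ratio to T cell transcripts, 0.34 with Cd3e, was -0.84 with Cd8a and -0.85 with Ncr1, and -0.018 (without PEG 2) to 0.62 when libraries were left out in turn. The cause was not tested.

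Replicate numbers gave correlations of 0.108, 0.109 and -0.050 between PEG and NC grafts of the same number and were not treated as pairs. With a replicate block 10, 8 and 10 members were called in PEG against NC, PEG against Unop and NC against Unop. Members with few reads in Unop (Gzmb, Ifng, Cd160) were limited by depth.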
